A study of Homo sapiens with 72 samples.

Results

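Untreated ectocervical epithelial cells (Ecto) were compared with untreated endocervical epithelial cells (Endo), 3 RNA-seq libraries of each. These 6 libraries were chosen by their labels, as the non-treated cultures without bacteria (NT+noGV) of both lines, out of 72 libraries in the series. The study asked how polyamines change the response of cervicovaginal cells to Gardnerella vaginalis (GV). Ecto, Endo and vaginal (VK2) cells were left non-treated (NT) or were kept for 4 h with 1 polyamine, namely putrescine (PUT) at 4 mM or spermidine (SPD) or spermine (SPM) at 400 µM each, and then received live GV for 24 h (10000000 CFU per well) or none. Each combination has 3 libraries, and the NT+noGV libraries are the shared baseline from which the other conditions start.

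The Ecto line is Ect/E6E7, the Endo line is End1/E6E7 and the VK2 line is VK2/E6E7. All are human epithelial lines that carry the human papillomavirus oncogenes E6 and E7, which inactivate p53 and the retinoblastoma protein, and all were kept in the same serum-free keratinocyte medium. Each cell type is represented by 1 line, so a difference between ectocervical and endocervical cells cannot be told apart from a difference between these lines. Whether the 3 libraries of a line come from separate cultures is not stated, so that every p-value rests on a spread between libraries that may be technical.

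The ectocervix, the part of the cervix that faces the vagina, is covered by a stratified squamous epithelium. Its basal cells contain KRT5 and KRT14 and its upper cells build a cornified envelope from involucrin and small proline-rich proteins through transglutaminases. The endocervical canal is lined by a simple columnar epithelium that contains KRT7, KRT8, KRT18 and KRT19 and secretes gel-forming mucins. Both epithelia meet at the squamocolumnar junction, where most cervical cancers arise.

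Depth overlapped between the lines, with 40199124, 25939821 and 42767996 counts in the Ecto libraries and 28482179, 32136769 and 32760893 in the Endo libraries. After a filter on low counts 16819 genes were tested, with a common biological coefficient of variation of 0.0376 between libraries of a line. Genes of the mitochondrial genome took 3.66% to 3.77% of the counts in Ecto and 5.57% to 5.68% in Endo libraries, with 4.79% to 5% for VK2 (exact two-sided permutation test of Ecto against Endo, p = 0.1, the smallest that 3 against 3 libraries allow). The 50 most abundant genes took 13.9% to 14.1% of the counts in Ecto and 17% to 17.5% in Endo cells. The part of these shares in the differences below was not tested.

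Levels are given as CPM, which are counts scaled to library size but not to gene length, so that a level can be compared between lines and not between genes. Fold changes are log2 values of Ecto over Endo from edgeR's quasi-likelihood test, with p-values adjusted over all genes tested. A gene passed the test at an adjusted p under 0.05, and was called when the log2 fold change was also at least 1 in size. By this rule 4312 genes were called (25.6% of those tested), 2074 higher in Ecto (12.3%) and 2238 lower (13.3%). At a log2 fold change of at least 2 in size the shares were 9.91%, 5.04% and 4.88%. With no threshold on the fold change 76.1% of the genes passed, 38.2% higher in Ecto and 37.9% lower, and these shares are the background for every list below. The median log2 fold change over all genes tested was 0.0125. In bulk RNA, fewer cells that express a gene and less RNA per cell cannot be told apart.

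The lines were first compared with the markers of their labels. Both expressed the squamous lineage regulator TP63 at like levels, with 361, 335 and 339 CPM in Ecto and 369, 330.3 and 362 CPM in Endo cells (log2 fold change -0.03, SE 0.0416, adjusted p = 0.47). The 3 libraries of each line overlapped, and the VK2 libraries held 324 ± 5.82 CPM (SD, n = 3). Of 12 squamous markers, 2 were higher in Ecto and 9 lower, and their summed level was 7425 to 7775 CPM in Ecto, 20156 to 20649 CPM in Endo cells and 36365 to 37639 CPM in VK2 cells. The line labelled ectocervical therefore had a lower sum of the squamous markers than the line labelled endocervical, in all 3 libraries of each. KRT5 and KRT6A made up most of that sum, with means of 4570 and 2316 CPM in Ecto and 12860 and 6396 CPM in Endo cells. CALML3 and SERPINB3 were the 2 markers higher in Ecto. Among those lower, DSG3 had 152 ± 6.21 CPM in Ecto and 271 ± 4.28 CPM in Endo cells (-0.84, not called). SPRR3 had 2 counts in the Ecto and 75 in the Endo libraries. Of 12 columnar markers 9 passed the filter, 3 higher in Ecto and 6 lower. The sum of the columnar markers was 4394 to 4632 CPM in Ecto, 3794 to 4025 CPM in Endo and, for VK2, 2261 to 2394 CPM. KRT8 and KRT18 made up most of the Ecto sum, with means of 1916 and 1408 CPM. KRT19 and KRT7 made up most of the Endo sum, with means of 1955 and 1422 CPM.

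The gel-forming mucins that define secretory endocervical cells were at or near 0 in both lines. MUC5B had 4 counts in the 3 Ecto libraries together and 3 in the Endo libraries, and MUC5AC had 2 and 0. PIGR, the receptor that carries immunoglobulin A across glandular epithelium, had 4 counts in each line. Endo cells therefore held these mucin and transport markers of their columnar label at no more than 4 counts, and so did Ecto cells. The 6 columnar markers lower in Ecto were KRT7, PAX8, AGR2, WFDC2, MUC16 and KRT19, all of them called. The 3 higher in Ecto were KRT8, KRT18 and EPCAM, also called. The adhesion molecule EPCAM had 236 ± 7.13 CPM in Ecto and 117 ± 2.42 CPM in Endo cells (1.02). Several defining markers of other cell types were near 0, as the leukocyte gene PTPRC had 2 counts in Ecto and 3 in Endo, the fibroblast gene DCN 5 and 3, and CD3E none in either line. Other members of the same lists were not. The surface glycoprotein THY1 had 13.9 ± 1.2 CPM in Ecto and 0.0356 ± 0.0374 CPM in Endo cells, the protease FAP 8.66 ± 0.911 and 1.46 ± 0.0946 CPM, the macrophage growth factor receptor CSF1R 7.11 ± 0.425 and 1.2 ± 0.125 CPM and the melanocyte factor MITF 19.7 ± 0.782 and 3.77 ± 0.178 CPM, all called higher in Ecto. The collagen gene COL1A1 was called lower in Ecto, at 14.8 ± 0.805 CPM against 31.4 ± 2.19 CPM in Endo cells, and the lysosomal CD68 was at 47.3 ± 0.848 and 39 ± 2.03 CPM. The part of these genes in the differences below was not tested. The whole fibroblast list of 9 genes summed to 36.8 to 39.4 CPM in Ecto and 31 to 35.3 CPM in Endo cells, and the leukocyte list of 11 genes to 54.6 to 55.3 CPM in Ecto and 39.2 to 42.9 CPM in Endo cells.

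The simple-epithelium keratins did not move together. KRT7, a type II keratin of simple epithelium, reached 14.9, 13.9 and 12.9 CPM in Ecto cells, against 1399.8, 1501 and 1366 CPM in Endo cells (log2 fold change -6.68, SE 0.0562, adjusted p = 2.9e-20). The nearest values of the lines were 14.9 CPM and 1366 CPM. KRT8, another type II keratin of simple epithelium, went the other way, with 1849, 1929 and 1970.4 CPM in Ecto and 119.7, 121 and 117 CPM in Endo cells (4.01). Its type I partner KRT18 had 1351, 1443 and 1429 CPM in Ecto and 205, 211 and 207 CPM in Endo cells (2.76). KRT7 and KRT8 lie in the same keratin cluster, at chr12:52232520-52252186 and chr12:52897187-52949954 in GRCh38, and the annotated end of KRT8 overlaps KRT18 on the other strand. KRT19, a type I keratin with no tail domain, was lower in Ecto at 957 ± 32.2 CPM, against 1955 ± 53.9 CPM in Endo cells (-1.03). The hair keratins KRT81 (37.3 ± 0.843 CPM in Ecto and 1.06 ± 0.313 CPM in Endo) and KRT86 (3.15 ± 0.339 and 0.409 ± 0.138 CPM) were higher in Ecto, though their sequences are so alike that reads may have been shared between them.

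VIM, the intermediate filament of mesenchymal cells that many cultured epithelial cells also make, had 746, 771 and 760.0 CPM in Ecto and 24.8, 24.3 and 22.4 CPM in Endo cells (log2 fold change 4.99, adjusted p = 1e-23). The receptor kinase AXL (61.1 ± 1.21 and 2.1 ± 0.275 CPM, 4.87) and the transcription factor TWIST2 (16.3 ± 0.812 and 1.58 ± 0.197 CPM, 3.37) were higher in Ecto as well. The mesenchymal list as a whole did not go one way, since 7 of its 20 tested members were higher in Ecto and 10 lower, with a median of -0.251.

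**Figure D1:**
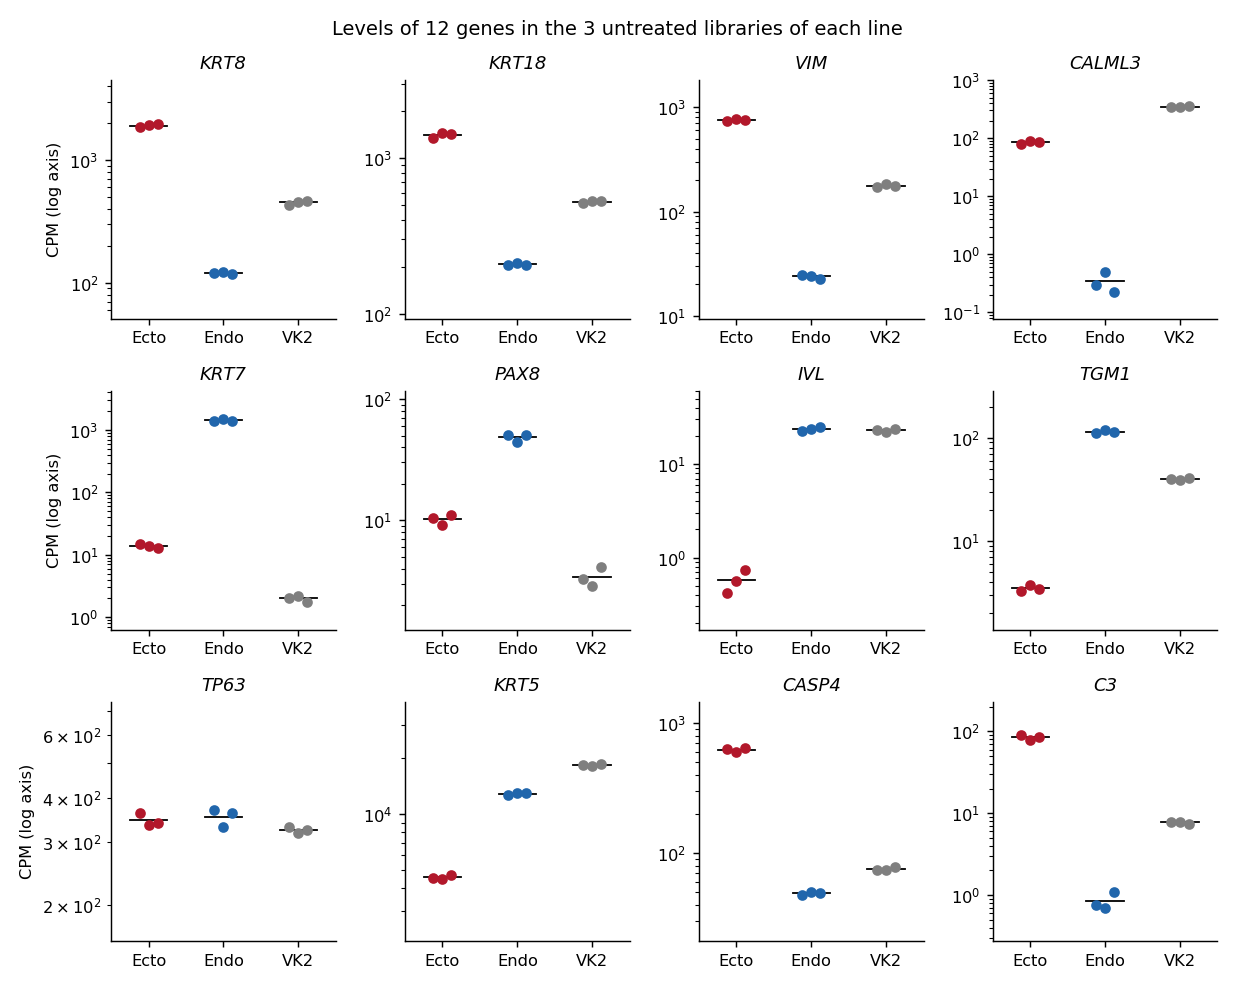
Levels of 12 genes in each untreated library (points, CPM on log axes) of Ecto, Endo and VK2 cells, with the mean of 3 libraries as a bar. KRT8, KRT18, VIM, CALML3, CASP4 and C3 are higher in Ecto than in Endo cells, KRT7, PAX8, IVL, TGM1 and KRT5 are lower, and TP63 overlaps at 361, 335 and 339 CPM in Ecto and 369, 330.3 and 362 CPM in Endo cells.

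Genes of the columnar and Müllerian lineage were divided in the same way. PAX8, a transcription factor of the Müllerian duct from which the endocervix develops, had 10.5, 9.18 and 11.1 CPM in Ecto and 50.6, 44.4 and 50.3 CPM in Endo cells (-2.23). FOXA2, a pioneer factor of glandular epithelium, had 0.0532 ± 0.0624 CPM in Ecto and 24.5 ± 1.92 CPM in Endo cells (-8.72, adjusted p = 6e-14). The estrogen receptor gene ESR1 and the homeobox gene MSX1 were higher in Ecto instead. ESR1 had 10.5, 10.2 and 11.2 CPM in Ecto and 0.933, 0.768 and 0.935 CPM in Endo cells (3.60), and MSX1 had 256 counts in the 3 Ecto libraries and 2 in the Endo libraries. The cell-surface mucin MUC16 was lower in Ecto, with 4.14 ± 0.528 CPM against 11.1 ± 0.216 CPM in Endo cells (-1.43). Of 24 tested genes in the list of simple-epithelium keratins and columnar factors, 9 were higher in Ecto and 15 lower, and of 15 tested Müllerian and secretory genes 5 were higher and 7 lower.

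Squamous differentiation genes were lower in Ecto cells almost throughout. Of 53 genes of the cornified envelope and its regulators 35 passed the filter, of which 30 were lower in Ecto and 3 higher, and 28 and 3 were called. Their median log2 fold change was -3.08, beside 0.0125 over all genes tested. Because the filter keeps a gene that is expressed in either line, such counts and medians describe the members that passed and not the full list. IVL, which encodes involucrin, had 0.414, 0.567 and 0.740 CPM in Ecto and 22.6, 24.0 and 24.7 CPM in Endo cells (-5.36). TGM1, the transglutaminase that crosslinks it, had 3.29, 3.70 and 3.40 CPM in Ecto and 110.3, 119 and 113 CPM in Endo cells (-5.05). SCEL (sciellin, another envelope protein) had 1.96 ± 0.268 CPM in Ecto and 61.5 ± 1.4 CPM in Endo cells, and SPRR1B, a small proline-rich precursor, 2.54 ± 0.125 and 65.2 ± 0.421 CPM. No Ecto library reached the lowest Endo library for any of these 4 genes. The libraries of the lines did not overlap for 78.1% of all genes tested, so this trait is not particular to them.

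CALML3 was the exception with the largest difference. This calmodulin-like protein of stratified epithelium had 80.4, 91 and 86.7 CPM in Ecto and 0.299, 0.501 and 0.226 CPM in Endo cells (7.96). The squamous serpin SERPINB3 was also higher in Ecto, with 4.12 ± 0.439 CPM against 1.72 ± 0.202 CPM in Endo cells (1.25). Among the mucosal keratins of the suprabasal layers, KRT13 had 0.488 ± 0.161 CPM in Ecto and 12.3 ± 1.24 CPM in Endo cells (-4.58), and KRT4 had 1 count in the 3 Ecto libraries and 88 in the Endo libraries. DSG1, the desmoglein of differentiated layers, had 1 and 220 counts.

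Basal keratinocyte genes were lower in Ecto to a smaller extent. Of 26 tested members 20 were lower and 2 higher, 14 and 1 of them called, with a median of -1.12. KRT5, the basal type II keratin, had 4526, 4468 and 4717 CPM in Ecto and 12665, 12999 and 12916 CPM in Endo cells (-1.49). Its partner KRT14 had 96.1 ± 5.19 CPM in Ecto cells, 414 ± 9.5 CPM in Endo cells and a mean of 7379 CPM in VK2 cells, so that both cervical lines lay far below the vaginal line. KRT16 and KRT17, which mark activated keratinocytes, had 17 ± 1.6 and 625 ± 21.8 CPM in Ecto and 186 ± 2.59 and 3245 ± 139 CPM in Endo cells.

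Kallikreins, the serine proteases that shed surface keratinocytes, followed the squamous genes. Of 20 tested kallikreins, clade B serpins and their regulators 14 were lower in Ecto and 4 higher. KLK10 had 0.268, 0.34 and 0.231 CPM in Ecto and 18.4, 21.2 and 19.8 CPM in Endo cells (-6.17), and the kallikrein inhibitor SPINK5 0.366, 0.378 and 0.393 CPM in Ecto and 30.1, 31.3 and 33.9 CPM in Endo cells (-6.38). Protease and inhibitor were thus both lower in Ecto.

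Adhesion genes differed by structure. Desmosomes anchor keratin filaments between cells, and of 13 tested desmosome genes 12 were lower in Ecto and 1 higher. The plaque protein PKP1 had 143, 147 and 149 CPM in Ecto and 747, 769.6 and 739.5 CPM in Endo cells (-2.36), and desmoplakin (DSP) 1294 ± 5.45 and 3236 ± 12.4 CPM (-1.32). Hemidesmosomes hold basal cells to the basement membrane, and their integrin subunit ITGB4 had 769, 781 and 803 CPM in Ecto and 2757, 2870.0 and 2682 CPM in Endo cells (-1.82). Within the list of laminins and integrins LAMA1, a laminin chain of early basement membranes, was higher in Ecto at 52.4 ± 0.871 CPM against 3.86 ± 0.083 CPM in Endo cells (3.76), while 26 of the 38 tested members were lower.

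Tight junction genes showed no shared direction, with 7 of 19 higher, 8 lower and a median of 0.0378. CLDN11 had 21.6, 23.3 and 20.6 CPM in Ecto and 0.821, 0.868 and 0.677 CPM in Endo cells (4.78), whereas CLDN1, the main claudin of stratified epithelium, had 67.1, 60.6 and 58.6 CPM in Ecto and 186, 168 and 196 CPM in Endo cells (-1.56). The scaffold TJP1 had 222 ± 2.89 CPM in Ecto and 216 ± 0.741 CPM in Endo cells (0.04, SE 0.0293, adjusted p = 0.25). E-cadherin (CDH1), the adherens junction protein of epithelium, was lower in Ecto at 325 ± 4.13 CPM against 638 ± 11.4 CPM in Endo cells (-0.97), just short of the threshold for a call.

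Some genes were on in one line and off in the other. Among protein-coding genes, 19 had at least 5 CPM in Ecto and at most 3 counts in the 3 Endo libraries together, and 32 had at least 5 CPM in Endo and at most 3 counts in Ecto. VK2 cells expressed 4 of the 19 and 21 of the 32 at 1 CPM or more. Of those absent from Endo, PRSS21, a membrane-bound serine protease (testisin, chr16:2817180-2826304), had 28.4, 28.8 and 27.9 CPM in Ecto and no count in Endo, at least 276-fold higher with each Endo library at 3 counts. MEIOB, a meiotic single-strand DNA binding protein, was at least 170-fold higher by the same floor, and NNMT, the nicotinamide N-methyltransferase, at least 96.3-fold higher. MT1E, a zinc-binding metallothionein, had 14204 counts in Ecto and 2 in Endo libraries, a ratio of CPM of 5627 (95% counting interval 1557 to 46469.5). The homeobox gene IRX2 had 5496 and 1 counts.

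In the other direction GRB10, an imprinted adaptor that binds the insulin receptor (chr7:50590063-50793462), had no count in Ecto and 80.7, 84.9 and 78 CPM in Endo cells, at least 952-fold lower in Ecto. The phosphatase and transcriptional coactivator EYA2 (chr20:46894624-47188844) had no count in Ecto and 58, 60.7 and 58.6 CPM in Endo cells, at least 693-fold lower. VK2 cells held 18.8 ± 0.872 CPM of GRB10 and 0.0594 ± 0.0586 CPM of EYA2, so that VK2 lay between the cervical lines for GRB10 and near the Ecto level for EYA2. The secreted peroxidase GPX3 had 3 counts in Ecto and 11097 in Endo libraries, the inflammasome-related NLRP2 had 2 and 6553, and the neurofilament gene NEFH had 3 and 8396. All of these differences were called, with an adjusted p of at most 1.5e-10 for IRX2 and lower values for the others. The genes were named as the largest fold changes among called genes, so their calls follow from that choice and add no support.

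HOX genes, which keep a record of position along the body axis, were largely higher in Ecto. Of 31 tested, 21 were higher and 6 lower, 16 and 3 of them called, with a median of 1.14. The posterior genes HOXD10 (21.1, 19.5 and 21.6 CPM in Ecto and 0, 0 and 0.0322 CPM in Endo) and HOXD11 (14.8, 12.9 and 14.7 CPM, against 0.0373, 0 and 0 CPM) were at or near 0 in Endo cells, and VK2 cells had 0.359 ± 0.133 CPM of HOXD10. HOXA10, which patterns the uterus, had 7.82, 7.03 and 6.98 CPM in Ecto and 0.187, 0.334 and 0.161 CPM in Endo cells (4.98), with 9.29 ± 0.523 CPM in VK2 cells. The anterior gene HOXB3 was lower in Ecto, at 8.88 ± 0.584 CPM against 16.7 ± 0.527 CPM in Endo cells (-0.91), and HOXB7 was at 23.7 ± 0.626 and 15.8 ± 0.791 CPM (0.59).

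Clustered protocadherins, whose stochastic choice of isoforms marks single neurons and is also seen in cultured clones, went the opposite way. Of 52 genes 26 passed the filter, of which 24 were lower in Ecto and 1 higher, with a median of -2.85 (-2.6 with the 3 members that had no count in Ecto at their lower bound). PCDHA12 had 0.0487, 0.113 and 0 CPM in Ecto and 7.73, 10.7 and 8.96 CPM in Endo cells, and PCDHAC1 had 1 and 627 counts. The members share 3′ exons within a cluster, so reads may have been divided between them.

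Epithelial cells of the cervix sense microbes and secrete cytokines, and basal levels of this machinery differed between the lines. Of 36 tested cytokines and chemokines 19 were higher in Ecto and 12 lower, 14 and 10 of them called. IL32 (chr16:3065297-3082192), a proinflammatory cytokine, had 82.5, 78.7 and 81.9 CPM in Ecto, 0.709, 0.634 and 0.451 CPM in Endo (7.09, SE 0.0867, adjusted p = 7.7e-22) and 0.517 ± 0.104 CPM in VK2 cells. IL6, the acute-phase cytokine, had 18.3, 18.7 and 17.6 CPM in Ecto, 0.187, 0.267 and 0.0967 CPM in Endo (6.61) and 0.408 ± 0.173 CPM in VK2 cells. Ecto cells thus stood apart from both other lines in IL32 and IL6. IL24 (9.42 ± 0.725 CPM in Ecto and 0.236 ± 0.0748 CPM in Endo) and the macrophage growth factor CSF1 (11.2 ± 0.929 and 0.984 ± 0.0851 CPM) were higher in Ecto too. The IL-1 pair differed little, with IL1A at 162 ± 10.3 CPM in Ecto and 127 ± 2.44 CPM in Endo cells (0.35) and IL1B at 35.8 ± 2.38 and 40.9 ± 0.814 CPM (-0.19).

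Among sensors and adaptors 14 of 31 tested genes were higher in Ecto and 12 lower, with 7 called each way. The inflammatory caspase CASP4, which binds bacterial lipopolysaccharide in the cytosol, had 631, 605 and 642 CPM in Ecto and 48.1, 50.1 and 49.8 CPM in Endo cells (3.67). CASP1, which matures IL-1β, had 169, 163 and 171 CPM in Ecto and 10.8, 11.7 and 12.2 CPM in Endo cells (3.86), and the inflammasome sensor NLRP3 had 515 counts in Ecto and 5 in Endo libraries. PYCARD, the adaptor that joins NLRP3 to CASP1, was nearly absent from Ecto, with 0, 0.0378 and 0.0462 CPM against 2.16, 3.41 and 2.58 CPM in Endo cells. Sensor and caspase were therefore high where the adaptor was at or near 0. The lipopolysaccharide coreceptor CD14 was higher in Ecto (5.4 ± 0.689 CPM against 0.611 ± 0.207 CPM in Endo cells, 3.13) and the flagellin receptor TLR5 was lower (0.214 ± 0.147 and 2.63 ± 0.0394 CPM, -3.74).

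Complement was led by C3 (chr19:6677704-6730562), the component on which all activation routes converge. It had 89.6, 77.4 and 85.6 CPM in Ecto, 0.746, 0.701 and 1.1 CPM in Endo (6.62, adjusted p = 9.2e-18) and 7.71 ± 0.278 CPM in VK2 cells. Factor B (CFB), which forms the alternative convertase with C3, had 3.33 ± 0.37 CPM in Ecto and 0.522 ± 0.0792 CPM in Endo cells (2.67), whereas the anaphylatoxin receptor C5AR1 had 0.358 ± 0.148 CPM in Ecto and 6 ± 0.339 CPM in Endo cells (-4.14). The surface inhibitor CD46 was at 212 ± 1.05 CPM in Ecto and 213 ± 6.27 CPM in Endo cells (adjusted p = 0.93).

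Of 14 tested antimicrobial and acute-phase genes 8 were higher in Ecto and 6 lower. Lipocalin 2 (LCN2), which withholds iron from bacteria, had 16.5, 17.7 and 17 CPM in Ecto and 3.28, 3.14 and 3.42 CPM in Endo cells (2.37). The ribonuclease RNASE7 had 79.5, 79.5 and 74.3 CPM in Ecto and 18.9, 19.5 and 19 CPM in Endo cells (2.02). SLPI, the leukocyte protease inhibitor of cervical mucus, was lower in Ecto, with 30.9, 28.3 and 29.8 CPM against 89.4, 94.7 and 93.7 CPM in Endo cells (-1.64). S100A9, a calprotectin subunit, was at 19 ± 1.67 CPM in Ecto and 4.1 ± 0.276 CPM in Endo cells, while its partner S100A8 was at 2.06 ± 0.413 and 1.51 ± 0.0501 CPM (0.46, adjusted p = 0.033). Without Ecto replicate 1 the S100A8 difference was 0.31 (adjusted p = 0.19), and it did not pass without Ecto replicate 3 or any 1 of the Endo libraries either (adjusted p = 0.054 to 0.079).

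Antigen presentation genes were higher in Ecto in 14 of 17 tested cases and lower in 1. HLA-B, a class I heavy chain, had 175, 169.7 and 170.4 CPM in Ecto and 42, 44.9 and 42.1 CPM in Endo cells (2.00). HLA genes differ between people and resemble one another, so part of such a difference can come from how reads of each allele were assigned. The immunoproteasome subunit PSMB9, which has no such copies, had 21.3, 19.8 and 20.3 CPM in Ecto and 2.35, 3 and 2.42 CPM in Endo cells (2.98). CD74, the class II invariant chain, was lower in Ecto at 0.367 ± 0.0494 CPM against 3.7 ± 0.358 CPM in Endo cells.

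Interferon-stimulated genes were split, with 10 of 38 tested higher in Ecto and 20 lower, and a median of -0.456. ISG15, a ubiquitin-like modifier, had 37.4, 35.5 and 36.1 CPM in Ecto and 184, 202 and 189 CPM in Endo cells (-2.40). DDX60, an RNA helicase of antiviral defense, had 64.5, 65.3 and 58.6 CPM in Ecto and 302, 299.7 and 297 CPM in Endo cells (-2.26). IFITM3, which blocks viral entry in endosomes, was higher in Ecto, with 166, 174 and 174 CPM against 37.1, 38.1 and 37.6 CPM in Endo cells (2.19). OAS3, which makes 2′-5′ oligoadenylates in response to double-stranded RNA, was nearly level at 189 ± 10.8 and 204 ± 4.97 CPM (-0.11, adjusted p = 0.011), a difference that did not pass without Ecto replicate 1 (adjusted p = 0.099) or Ecto replicate 2 (adjusted p = 0.12).

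Promoters of these 4 genes are shown because genes with the same element differed in opposite directions. Each is the 250 bases before the RefSeq start of the gene in GRCh38.p14, read 5′ to 3′ on the gene's strand, with matches to GAAANNGAAA in capitals. This is the core of the interferon-stimulated response element, and matches were sought on both strands and may overlap.
ISG15: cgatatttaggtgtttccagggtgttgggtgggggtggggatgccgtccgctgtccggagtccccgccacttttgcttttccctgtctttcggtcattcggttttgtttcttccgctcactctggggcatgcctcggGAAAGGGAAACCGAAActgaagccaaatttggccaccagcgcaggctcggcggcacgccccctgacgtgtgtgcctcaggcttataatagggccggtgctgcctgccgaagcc
DDX60: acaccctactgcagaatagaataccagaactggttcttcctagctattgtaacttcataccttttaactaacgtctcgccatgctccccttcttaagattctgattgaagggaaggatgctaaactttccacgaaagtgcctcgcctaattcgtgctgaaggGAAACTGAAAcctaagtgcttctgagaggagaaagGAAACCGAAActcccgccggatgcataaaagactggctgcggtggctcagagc
IFITM3: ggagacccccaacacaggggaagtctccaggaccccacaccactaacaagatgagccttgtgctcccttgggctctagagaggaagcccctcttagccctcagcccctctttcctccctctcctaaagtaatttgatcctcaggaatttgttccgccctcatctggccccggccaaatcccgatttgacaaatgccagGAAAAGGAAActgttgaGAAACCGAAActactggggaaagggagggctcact
OAS3: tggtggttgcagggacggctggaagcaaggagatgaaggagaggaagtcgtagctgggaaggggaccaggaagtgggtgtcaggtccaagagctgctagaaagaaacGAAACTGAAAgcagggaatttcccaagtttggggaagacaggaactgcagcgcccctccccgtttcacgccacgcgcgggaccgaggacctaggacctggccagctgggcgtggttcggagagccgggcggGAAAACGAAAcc
ISG15 lies at chr1:1013247-1013496 on the plus strand, DDX60 at chr4:168318753-168319002 on the minus strand, IFITM3 at chr11:320861-321110 on the minus strand and OAS3 at chr12:112938224-112938473 on the plus strand. Counting back from the start, the matches begin at -113 and -107 in ISG15, where they overlap, at -88 and -53 in DDX60, at -52 and -35 in IFITM3 and at -143 and -12 in OAS3. Of the 41 genes in the list 31 had a promoter in the RefSeq table, and 19 of these held the motif, against 3.02% of 35116 promoters of the same length. It was present in 12 of 16 matched genes that were lower in Ecto and in 5 of 5 that were higher, so the genes in both directions held it. A match describes the letters in this window and is no evidence that a factor binds there.

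**Figure D2:**
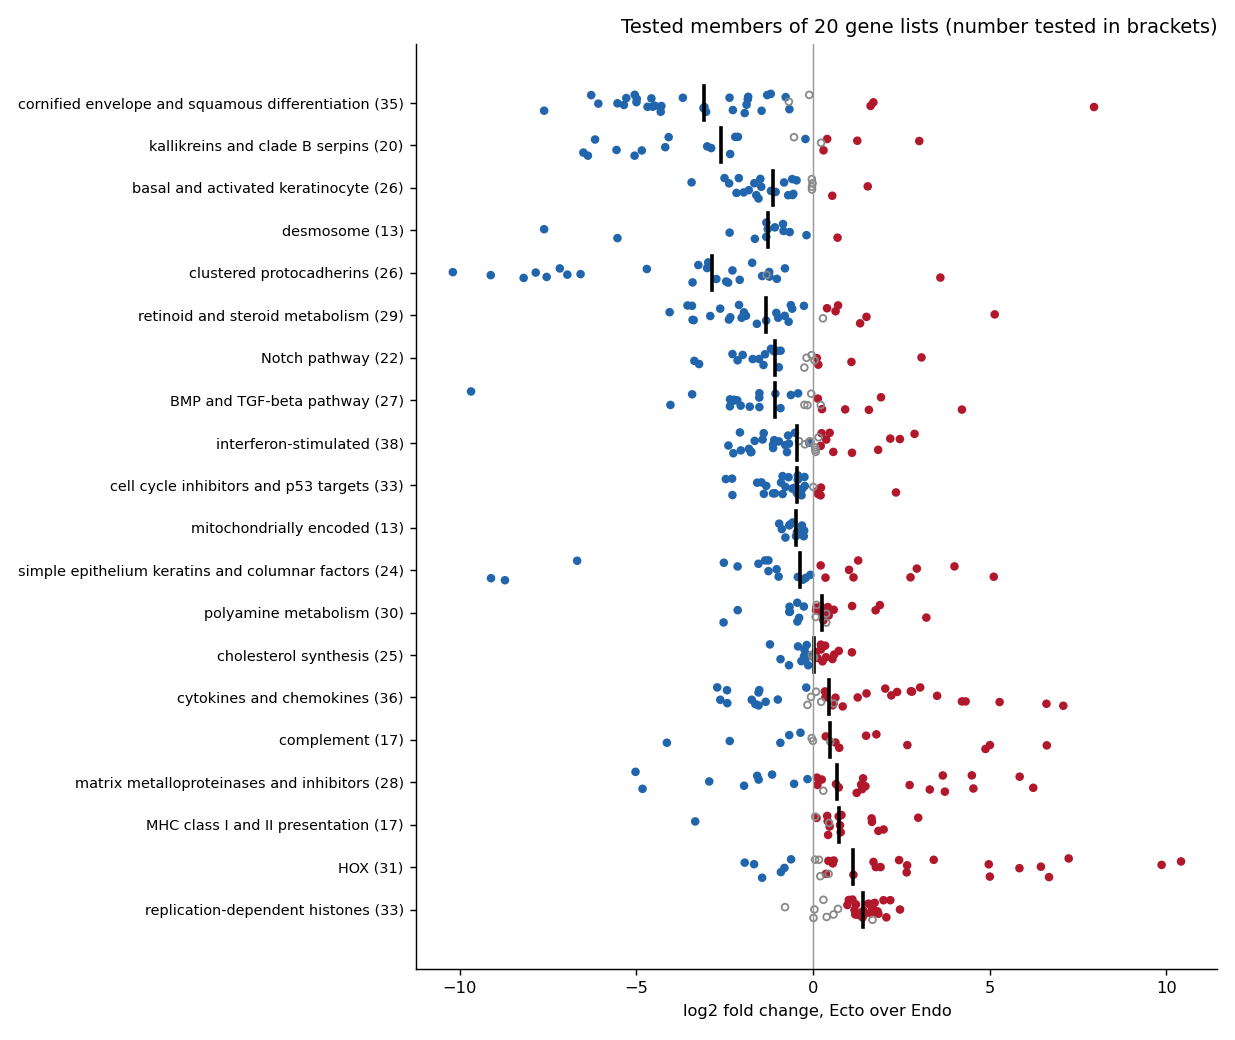
Log2 fold changes of Ecto over Endo for the tested members of 20 gene lists, where each point is a gene and the black bar is the list's median. Filled points passed the test (red higher in Ecto, blue lower) and open points did not, and the medians run from -3.08 for the cornified envelope list to 1.4 for the replication-dependent histones.

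Of 28 tested matrix proteases and their inhibitors 18 were higher in Ecto and 9 lower. The membrane-anchored MMP17 had 14.5, 13.5 and 13.6 CPM in Ecto and 0.709, 0.634 and 0.451 CPM in Endo cells (4.54), and the gelatinase MMP2 5.48 ± 0.221 and 0.239 ± 0.0645 CPM (4.50). Inhibitors went both ways. TIMP4 was higher in Ecto, also in the 6 other conditions in which it was tested (log2 fold changes 6.45 to 9.51). In the remaining condition it did not pass the filter on low counts, so these sizes are limited by depth. TIMP3 was lower in Ecto, with 8.46, 6.99 and 7.86 CPM against 255, 258 and 255 CPM in Endo cells (-5.03) and 530.3 ± 8.84 CPM in VK2 cells. MMP28, an epithelial metalloprotease, was lower as well (1.37 ± 0.575 CPM in Ecto and 40.7 ± 1.83 CPM in Endo cells, -4.83).

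Signalling pathways that guide epithelial differentiation were lower in Ecto in most of their parts. In the Notch pathway 14 of 22 tested genes were lower and 4 higher, and in the BMP and TGF-β pathway 17 of 27 were lower and 6 higher. The receptor NOTCH3 had 10.1, 10.3 and 11.4 CPM in Ecto and 110.0, 112 and 106 CPM in Endo cells (-3.36), its ligand JAG2 112 ± 0.879 and 219 ± 7.15 CPM (-0.97), and the target gene HES1 11 ± 0.679 and 43.7 ± 0.49 CPM (-1.99). The receptor NOTCH2 did not pass the test (228 ± 3.17 CPM in Ecto and 235 ± 7.56 CPM in Endo cells, adjusted p = 0.27), and the coactivator MAML2 was higher in Ecto (71.4 ± 4.41 and 8.51 ± 0.471 CPM, 3.07). NOTCH3, JAG2 and HES1 thus differed in the same direction, though JAG2 fell short of a call. The pathway as a whole did not, since NOTCH2 did not pass and MAML2 was among the 4 genes higher in Ecto.

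The ligand BMP7 had 1 count in Ecto and 927 in Endo libraries. The BMP target genes ID1 and ID3, inhibitors of differentiation factors, had 20.5 ± 1.12 and 8.89 ± 0.408 CPM in Ecto and 97.6 ± 1.23 and 45.5 ± 3.41 CPM in Endo cells. Ligand and targets were thus each lower in Ecto, and a link between them was not tested. In the WNT pathway 23 of 34 tested genes were lower in Ecto and 9 higher. LGR6, a receptor of R-spondins, had no count in Ecto and 2.09 ± 0.163 CPM in Endo cells, at least 24.6-fold lower in Ecto, and the ligand WNT5B was higher (15.5 ± 1.21 and 2.65 ± 0.582 CPM, 2.53).

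Among EGFR ligands and receptors 7 of 15 were higher in Ecto and 5 lower. The receptor EGFR had 741, 723 and 716 CPM in Ecto and 1329, 1294 and 1235 CPM in Endo cells (-0.82), and its negative regulator LRIG1 10.2 ± 0.442 and 0.625 ± 0.0955 CPM (4.01). The ligand NRG1, which binds ERBB3 and ERBB4, had 22.2 ± 0.978 CPM in Ecto and 139 ± 5.23 CPM in Endo cells (-2.65).

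Polyamines are made from arginine by way of ornithine and putrescine, and the baseline of this pathway bears on how the lines were later treated. Of 30 tested genes of polyamine metabolism and transport 17 were higher in Ecto and 9 lower, but 4 and 2 were called, with a median of 0.24. Spermidine synthase (SRM) had 146, 156 and 148 CPM in Ecto and 70.7, 73.1 and 64.9 CPM in Endo cells (1.11). Spermine oxidase (SMOX), which turns spermine back into spermidine, had 3.61, 3.74 and 3.35 CPM in Ecto and 15.7, 16.2 and 14.8 CPM in Endo cells (-2.13). The enzyme that makes spermidine was therefore higher in Ecto and the one that oxidizes spermine lower. The organic cation transporter SLC22A3 had 2.85, 2.83 and 1.97 CPM in Ecto and 14.5, 14.8 and 14.3 CPM in Endo cells (-2.53), and the cationic amino acid transporter SLC7A2 3.2 ± 0.105 and 0.351 ± 0.182 CPM (3.21). Arginase 2 (ARG2), which gives ornithine, was at 62.9 ± 0.418 CPM in Ecto and 99.8 ± 4.03 CPM in Endo cells (-0.67).

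Enzymes of retinoid and steroid metabolism were lower in Ecto in 22 of 29 tested cases and higher in 6. AKR1C2, which inactivates dihydrotestosterone, had 1.26 ± 0.573 CPM in Ecto and 22.3 ± 1 CPM in Endo cells (-4.06), and CYP1B1, which hydroxylates estrogens, 1.58 ± 0.279 and 18.3 ± 0.647 CPM (-3.55). HSD17B2, which oxidizes estradiol to estrone, was higher in Ecto with 196 counts against 4 in Endo libraries. Among targets of the antioxidant factor NRF2 12 of 23 were higher and 8 lower, with ferritin light chain (FTL) at 780.4 ± 7.84 CPM in Ecto and 226 ± 1.98 CPM in Endo cells (1.79) and the gastrointestinal-type glutathione peroxidase GPX2 at 0.129 ± 0.0281 and 17.2 ± 0.438 CPM (-7.04). The metallothionein MT2A did not pass the test (1973 ± 62.4 CPM in Ecto and 2042 ± 67.5 CPM in Endo cells, adjusted p = 0.18), and MT1X was lower in Ecto (81.3 ± 2.55 and 324 ± 14.9 CPM, -1.99). Metallothioneins are so alike that reads may have been shared between them, MT1E included.

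Genes of glycolysis and hypoxia were higher in Ecto in 15 of 29 tested cases and lower in 9. The brain-type aldolase ALDOC had 34.4, 35.3 and 37.5 CPM in Ecto and 1.19, 0.935 and 1.03 CPM in Endo cells (5.09), the glucose transporter SLC2A3 4.09 ± 0.644 and 0.136 ± 0.0247 CPM (4.87) and the carbonic anhydrase CA9 25.8 ± 1.76 and 3.86 ± 0.342 CPM (2.74). GAPDH, often used as a reference gene, was lower in Ecto at 2971 ± 83.1 CPM against 4841 ± 132 CPM in Endo cells (-0.70). All 13 protein-coding genes of the mitochondrial genome were lower in Ecto and none was called, with a median of -0.482, and MT-CO3, a subunit of cytochrome c oxidase, had 3606 ± 66.9 CPM in Ecto and 7011 ± 163 CPM in Endo cells.

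Cell cycle genes differed by small amounts, with 15 of 40 higher in Ecto, 21 lower, and 2 and 3 called. The proliferation marker MKI67 was at 556 ± 27.3 CPM in Ecto and 859 ± 29.8 CPM in Endo cells (-0.63), and the phosphatase CDC25A, which starts S phase, at 38.9 ± 1.13 and 16.1 ± 0.374 CPM (1.28). Cell cycle inhibitors and p53 targets were lower in Ecto in 27 of 33 cases and higher in 5. CDKN2B, which encodes the inhibitor p15, had 26.8, 23.2 and 26.9 CPM in Ecto and 145, 135 and 149 CPM in Endo cells (-2.47), BTG2, an antiproliferative p53 target, 9.98 ± 0.81 and 48.5 ± 2.06 CPM (-2.28), and CDKN1A, which encodes p21, 249.8 ± 6.94 and 429.8 ± 11.5 CPM (-0.78).

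Replication-dependent histone genes, whose transcripts end in a stem-loop without a poly(A) tail, were higher in Ecto in 25 of 33 tested cases and lower in none, with 24 called and a median of 1.4. H2BC4 had 8.29, 7.93 and 7.31 CPM in Ecto and 1.68, 1.6 and 2.26 CPM in Endo cells (2.08). The list of 49 genes took 0.0258%, 0.0238% and 0.0257% of the counts in Ecto and 0.00969%, 0.00871% and 0.0094% in Endo libraries, with 0.00535% to 0.00584% for VK2 (exact two-sided permutation test of Ecto against Endo, p = 0.1, the smallest possible). These genes are near-identical copies, so the list is firmer than any member, and MKI67 was lower in Ecto.

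The differences were not spread evenly over the chromosomes. On chromosome 11 the median log2 fold change of 910 tested genes was 0.651, with 34% called higher in Ecto and 11.9% lower, beside 12.3% and 13.3% over all genes. On chromosome 3 it was 0.465 over 913 genes (26.1% higher and 6.46% lower), and on chromosome 22 it was -0.901 over 388 genes (3.87% higher and 42.8% lower). Relative to the mean of the 3 lines, the median chromosome 22 gene deviated by -0.409 in Ecto cells on the log2 scale. The deviation was 0.382 in Endo and 0.0141 in VK2 cells. VK2 did not lie between the cervical lines throughout, though it did from 20 to 40 Mb (0.168). From 0 to 20 Mb VK2 deviated by 0.284 and Endo by 0.282, and from 40 to 60 Mb VK2 by -0.237 and Ecto by -0.186. On chromosome 3 the deviations were 0.256 in Ecto and -0.146 in Endo cells, with -0.152 for VK2. On chromosome 11 they were 0.304, -0.253 and -0.0226 in that order. There too the VK2 value joined unlike windows. From 0 to 20 Mb VK2 (0.282) lay near Ecto (0.322), and from 80 to 100 Mb VK2 (-0.389) lay near Endo (-0.311).

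Within chromosomes the shift had edges. In windows of 20 Mb the median on chromosome 3 was 1.04 from 0 to 20 Mb and 0.918 from 60 to 80 Mb, and -0.213 from 80 to 100 Mb. Along chromosome 11 it was 1 in the first window, reached 1.44 from 80 to 100 Mb, and was -0.742 from 100 to 120 Mb and -1.02 from 120 to 140 Mb. Of 155 windows with at least 20 tested genes, 10 had a median above 0.5 and 17 one below -0.5, between -1.28 and 1.44. The medians of chromosomes 3, 11 and 22 were 0.406 to 0.555, 0.543 to 0.709 and -1.06 to -0.849 in the other 7 conditions, which used other libraries of the same lines. Single genes did not always follow the median of their window. On chromosome 11 between 100 and 120 Mb 27.9% of genes were called higher in Ecto and 35.2% lower. CASP1 and CASP4, both higher in Ecto, lie in this mixed window. Other genes named above went with their window. TIMP3 and NEFH, lower in Ecto, lie on chromosome 22 between 20 and 40 Mb. There the median was -0.953, with 46.6% called lower and 4.52% higher. IFITM3, higher in Ecto, lies in the first window of chromosome 11, with 50% called higher and 2.81% lower. The part of position in the results of single genes and lists was not tested. No karyotype was measured, and the part of gene copy number in these shifts was not tested.

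**Figure D3:**
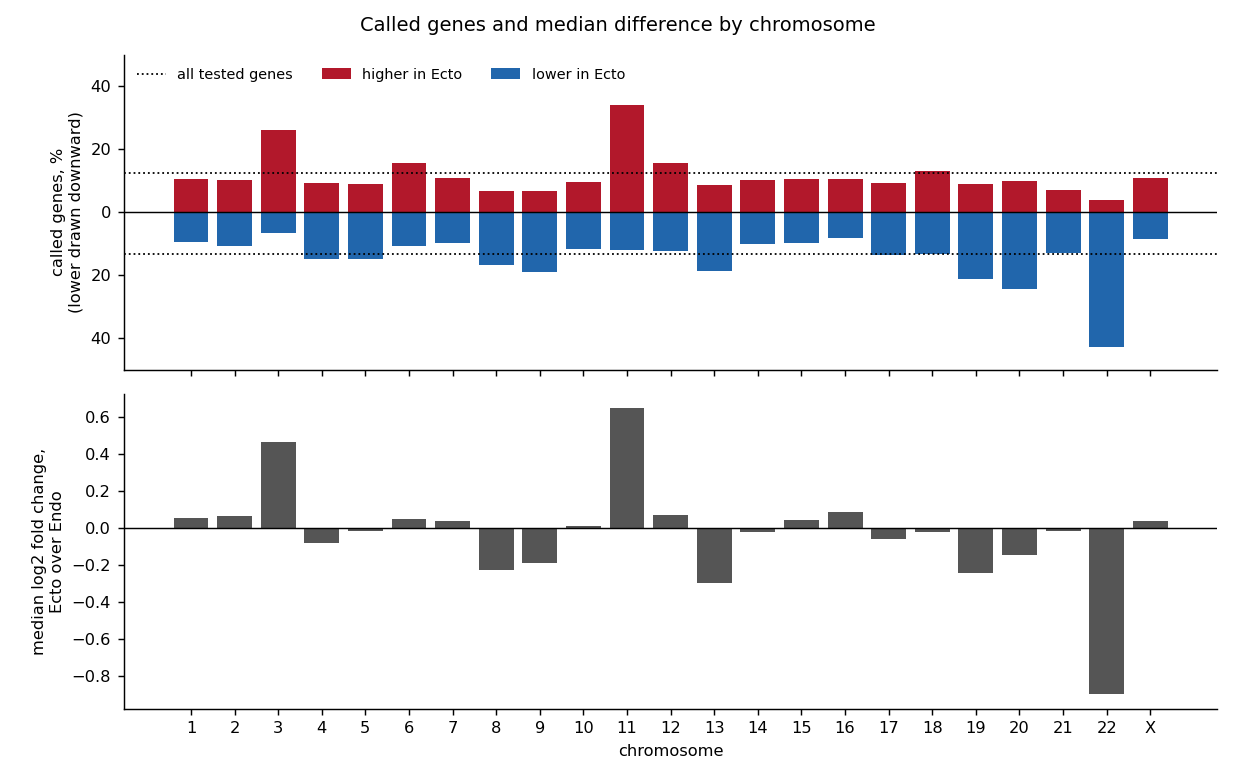
Percent of tested genes called higher (red, upward) and lower (blue, downward) in Ecto for each chromosome, with dotted lines at 12.3% and 13.3% for all genes, and below it the median log2 fold change of Ecto over Endo. Chromosome 11 and chromosome 3 stand out upward (34% and 26.1% called higher) and chromosome 22 downward (42.8% called lower).

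The same difference was then measured in the other 7 conditions, each with 3 Ecto and 3 Endo libraries that the untreated comparison did not use. Of the 4312 genes called in untreated cells, 3452 (80.1%) were called in the same direction after PUT, 3638 (84.4%) after SPD and 3573 (82.9%) after SPM without bacteria. With GV the counts were 3026 (70.2%) without polyamine, 2857 (66.3%) after PUT, 2934 (68%) after SPD and 2815 (65.3%) after SPM. In all 7 conditions 1968 genes (45.6%) were called in the same direction, 985 higher in Ecto and 983 lower, and 50 genes were called in the opposite direction at least once. The background share of called genes in these conditions was 24.4% to 28.4%.

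The 8 filament and squamous genes plotted kept their direction in every condition. KRT7 was lower in Ecto by log2 fold changes between -7.69 and -5.65, TGM1 between -6.08 and -3.73 and IVL between -5.62 and -3.87. VIM was higher by 3.54 to 5.35, CALML3 by 6.79 to 8.89 and KRT8 by 1.30 to 3.99, all less than the 4.01 in untreated cells. Other genes of these lists did not keep theirs. SERPINB3, higher in untreated Ecto cells (1.25), had the same sign in 3 of the 7 other conditions and was -1.97 in PUT+GV cells, and KRT4, lower in untreated Ecto cells (-6.28), was 2.80 in SPM+GV cells. KRT10, which did not pass the test in untreated cells (-0.11), was 0.25 to 0.60 in the other 7. Among defense genes C3 ranged over 1.03 to 7.07 and IL32 over 3.06 to 8.08, while S100A9 ranged over -0.80 to 2.53 and LCN2 over -0.44 to 2.77 and so changed sign. The histone list turned with the treatment, with 5 genes higher and 21 lower in PUT+GV cells (median -0.539) and 41 higher and none lower in SPM+GV cells (median 2.18).

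**Figure D4:**
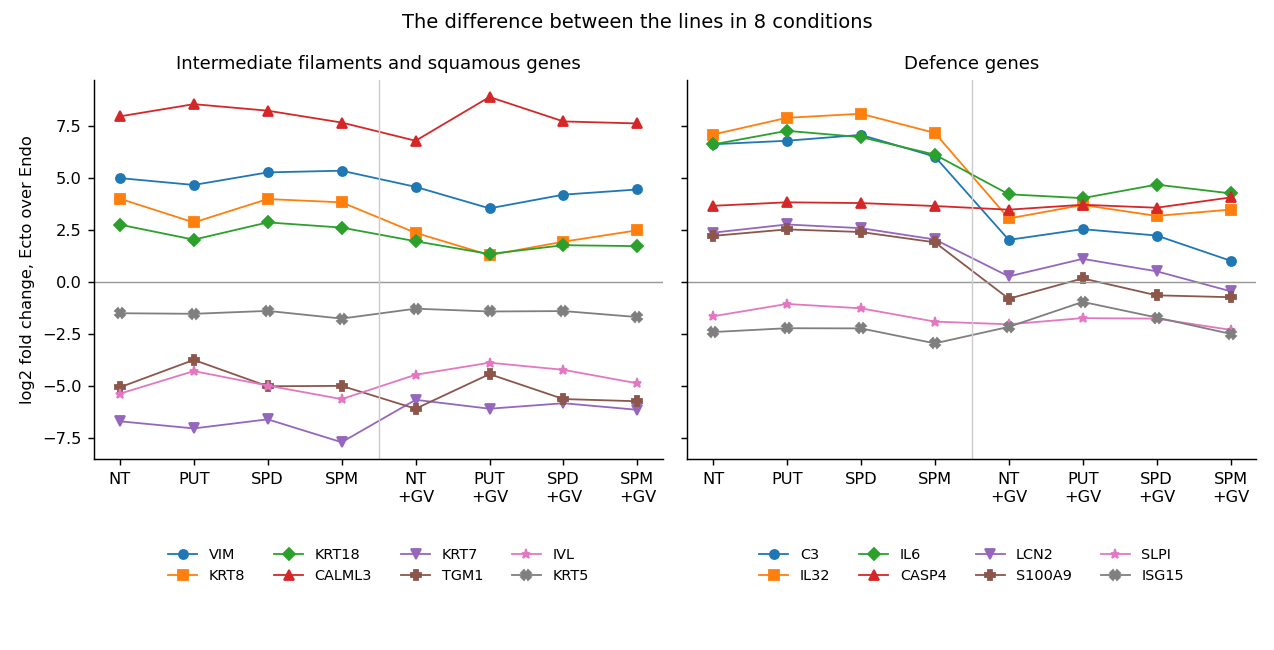
Log2 fold changes of Ecto over Endo in each of 8 conditions (NT, PUT, SPD and SPM, then the same with GV), for filament and squamous genes (left) and defense genes (right), where each point comes from its own 6 libraries. KRT7, TGM1 and IVL stay below 0 and VIM and CALML3 above 0 in all 8, while S100A9 falls to -0.80 with GV.

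Whether the difference between the lines changed with GV was tested directly, as the interaction of line and exposure over 12 libraries of non-treated cells. Of 18192 genes tested 835 were called (4.59%), with the Ecto over Endo log2 fold change greater with GV in 425 (2.34%) and less in 410 (2.25%). Of these, 517 were also called in untreated cells, and in 470 the change ran against the untreated difference. Since both quantities contain the same untreated libraries, this count is a description.

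C3 is the clearest case. With GV it had 179, 187 and 196 CPM in Ecto and 44.1, 46.7 and 46.8 CPM in Endo cells, and without GV 89.6, 77.4 and 85.6 CPM in Ecto and 0.746, 0.701 and 1.1 CPM in Endo cells. The log2 fold change between the lines was 2.03 with GV and 6.62 without (interaction -4.59, SE 0.136, adjusted p = 8.3e-15). IL32 behaved alike, with 145, 143 and 141 CPM in Ecto and 16, 17.4 and 18 CPM in Endo cells under GV (interaction -4.03, SE 0.125, adjusted p = 7.3e-16). In both genes the level with GV was above that without GV in each line, and the Endo cells with GV stayed below the Ecto cells without it.

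S100A9 crossed over. It had 35.7, 38.3 and 40.9 CPM in Ecto and 62.6, 64.9 and 71.8 CPM in Endo cells with GV, and 20.1, 17.1 and 19.9 CPM in Ecto and 3.88, 4.41 and 4 CPM in Endo cells without (interaction -3.02, adjusted p = 1.3e-13). ANGPTL4, a secreted regulator of lipoprotein lipase, went the other way, with 47.9, 75.4 and 66 CPM in Ecto and 42.5, 52.1 and 45.3 CPM in Endo cells with GV and 8.07, 7.9 and 8.62 CPM in Ecto and 52.6, 56 and 51.9 CPM in Endo cells without (interaction 3.13, SE 0.24, adjusted p = 1.4e-05). The Endo libraries with and without GV lay between 42.5 and 56 CPM, and with GV 1 of the 3 Ecto libraries lay in that range and 2 above it. By list, the interaction passed the test as less in Ecto for 19 of 45 cytokines and chemokines and as more for 4, for 9 and 0 of 16 antimicrobial genes, for 14 and 0 of 18 antigen presentation genes and for 17 and 1 of 35 histones, beside 18.9% less and 16.7% more over all genes tested. In the WNT list 20 of 35 genes were more and 2 less.

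**Figure D5:**
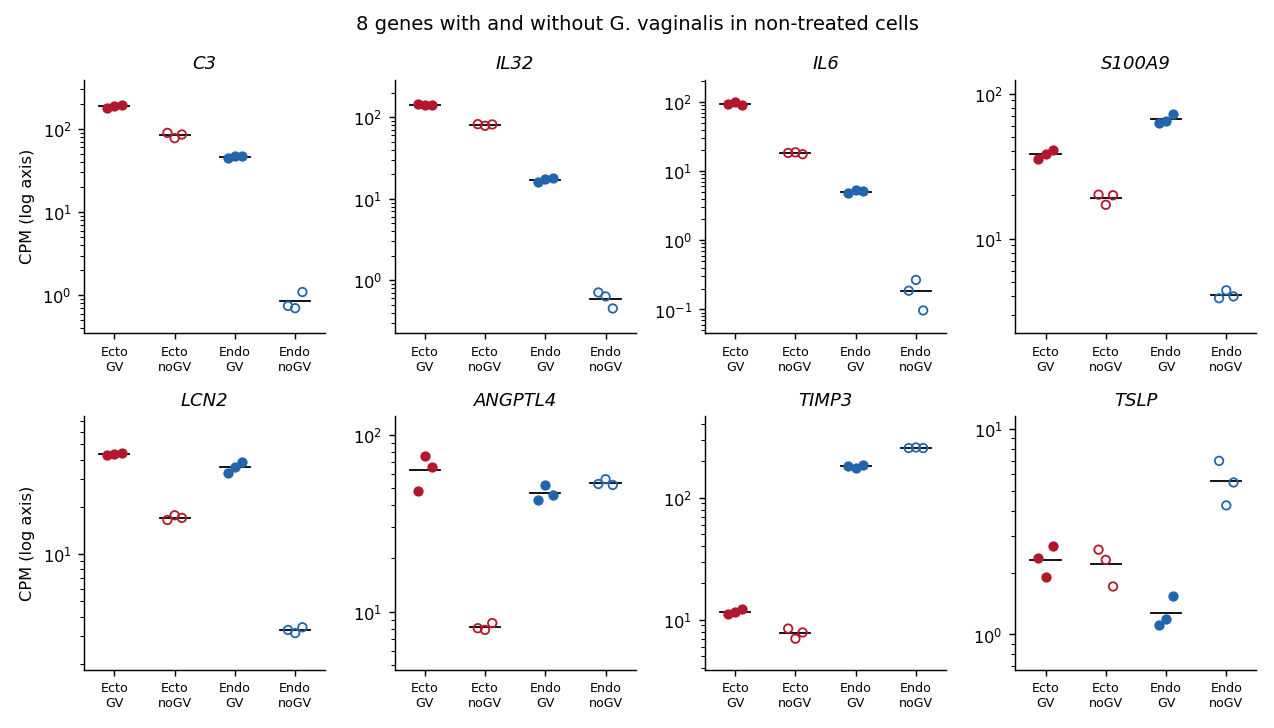
Levels (CPM, log axes) of 8 genes in each library of Ecto and Endo non-treated cells with GV (filled) and without GV (open), with bars at the means. C3, IL32 and IL6 are lowest in Endo cells without GV, S100A9 is highest in Endo cells with GV (62.6, 64.9 and 71.8 CPM), and TSLP was chosen after its values were seen.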

How the data were processed

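Total RNA libraries (ribosomal RNA depleted, stranded, with molecular identifiers) were sequenced from 3 cell lines. The authors deposited estimated counts per gene from Salmon, summarized with tximeta on annotation release 44 of GRCh38.p13. Use of the identifiers in counting is not given in the sources used here. Groups followed the labels. Genes were kept with edgeR's filterByExpr (minimum count 10), scaled by TMM and tested with edgeR 4.0.16 quasi-likelihood fits in R 4.3.3 (Benjamini-Hochberg adjustment), on 6 libraries for Ecto against Endo and on 12 for the interaction with GV. Intervals and floors (3 counts per library, 95%) cover counting error only. Genes named were the 10 with the largest fold changes each way among those with at least 5 CPM, per list up to 6 that passed and 2 not called, every squamous and columnar marker, and 5 interactions each way. Members and lists were chosen with earlier results of these data known. Alternatives were DESeq2 1.42.0, other scalings and filters, wider sample sets, a replicate block and leaving out each library. The step was tested on simulated data with few changed genes and the same spread for all, unlike these data, so it does not give their error rate. At an adjusted p under 0.05 alone, edgeR found 90 of 94 genes changed by a log2 of 1, with 6 false calls among 15985 genes. DESeq2 found 79 of 100 with 8 false calls. For the simulated interaction edgeR found 79 of 96 with 10 false calls. Libraries with the same number did not deviate together (correlations 0.00274, -0.014 and -0.058). Some genes of these lists are not reported here.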

Additional observations from a re-analysis of the deposited data

Results flagged for a closer look

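For 10 genes the test of the difference itself, edgeR's interaction of line and GV in non-treated cells, gave the largest changes among those that passed. The Ecto over Endo log2 fold change was greater with GV for ANGPTL4 by 3.13 (SE 0.24, adjusted p = 1.4e-05), for the antisense transcript VLDLR-AS1 by 2.89 (SE 0.322, adjusted p = 3.3e-07), for ZNF608 by 2.62 (SE 0.831, adjusted p = 0.017), for NANOS1, an RNA-binding protein, by 2.57 (SE 0.23, adjusted p = 2.9e-08) and for the forkhead factor FOXE1 by 2.5 (SE 0.586, adjusted p = 0.0024).

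It was less with GV for C3 (-4.59) and IL32 (-4.03), whose levels are given above, and for PTPN20 (-5.64, SE 1, adjusted p = 0.00016), the proton pump subunit ATP6V0A4 (-4.16, SE 1.3, adjusted p = 0.016) and NNMT (-3.92, SE 1.18, adjusted p = 0.033). The last 3 genes had no count in untreated Endo cells, so the size of their change depends on the prior count of the fit. The same limit holds for ZNF608 and FOXE1, which had 3 counts each in untreated Ecto cells. ZNF608 had 0.175, 0.0287 and 0.0265 CPM in Ecto cells with GV, so that its change rests on 1 library, and without that library it was 1.20 (edgeR, adjusted p = 0.53).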

How the results depend on the processing

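With a log2 threshold of 2 the count of called genes was 1667 (847 higher in Ecto and 820 lower), and with no fold threshold 12803 (6426 and 6377), in place of 4312. The other settings gave 3314 (only genes of at least 1 CPM) to 5777 (no filter), DESeq2 gave 4209 and the replicate block 4325. Leaving out 1 library gave 4454 to 4529 genes, of which 2103 to 2218 were higher in Ecto and 2274 to 2379 lower. The interaction with GV gave 655 genes in DESeq2, 807 with the replicate block and 766 to 882 with 1 library left out, against 835. No result that passed the test reversed. For named genes the side of the adjusted p threshold was kept in 3854 cases, lost in 15 and gained in 7. Chromosome medians were kept in 293 cases and moved in 6, and list counts were kept in 1032 cases and moved in 8. S100A8 also lost significance in DESeq2 (adjusted p = 0.13) and with the replicate block (edgeR, adjusted p = 0.069), and TP63 passed without Endo replicate 2 (-0.08, edgeR adjusted p = 0.032). Among interactions, ZNF608 was 1.20 without Ecto NT+GV replicate 1 (adjusted p = 0.53, edgeR) and did not pass without Ecto NT+noGV replicate 3 (edgeR, adjusted p = 0.055), ATP6V0A4 was -3.44 without Endo NT+GV replicate 2 (adjusted p = 0.094, edgeR), and NNMT did not pass in 7 settings (adjusted p = 0.053 to 0.15, edgeR and DESeq2). Scaling by total counts moved the median log2 fold change of all genes by 0.114 and turned the balance of calls, with 2397 higher in Ecto and 1928 lower (55.4% higher, against 48.1%). Genes near the filter, and those at 0 in 1 line, are limited by depth.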

Other observations

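Long noncoding transcripts, chosen after their values were seen, were also on in one line and off in the other. Of 2562 tested, 835 were called (32.6%), beside 3268 of 13557 protein-coding genes (24.1%). IRX2-DT, the divergent transcript beside IRX2, had 9.70, 10.8 and 9.34 CPM in Ecto and no count in Endo cells, as IRX2 itself was on in Ecto. PAX8-AS1 had 67.2, 61.8 and 64.5 CPM in Ecto and 1.42, 1.24 and 1.19 CPM in Endo cells, opposite to PAX8, which it overlaps on the other strand. The libraries were stranded, but whether strand was used in counting is not given in the sources used here. LINC01139 and ELFN1-AS1 had no count in Ecto, and 5.37, 5.21 and 4.45 CPM and 5.71, 5.34 and 5.97 CPM in Endo cells.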
